A study of Mus musculus with 2 samples.

Results

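Transcripts of ultraconserved regions were measured in mouse plasma with 962 probes, each printed as 1 spot, of the 61194 spots per array that are not array controls. A probe was taken as a member when it was a custom probe of the array design, was not a control and carried a transcript name starting with uc. in the scanner files. These 962 probes name 481 ultraconserved elements, and each element has 1 probe ending in + and 1 ending in -. The study used the Arraystar Mouse LncRNA Microarray v2.0, a 1-colour array on which labelled RNA binds to printed probes and a scanner reads the brightness of each spot, to compare plasma LncRNAs after hepatic ischemia/reperfusion injury (IRI) with those after sham operation. Male C57BL/6 mice of 8 to 10 weeks either had 60 minutes of partial ischemia, affecting 70% of the liver, followed by 6 hours of reperfusion, or had the same operation without vascular occlusion. Plasma was pooled within each group, from 5 to 8 mice per the methods and from 3 mice per the label text of the IRI pool, and each pool was hybridised to 1 array. There was therefore no replicate, and all values, counts and fold changes below describe 2 deposited samples and were not tested.

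Ultraconserved regions are long stretches of the genome without a single base difference between human, mouse and rat. Some lie in exons of protein-coding genes, many of them genes of RNA-binding proteins, and others lie in introns or between genes, often near genes of developmental transcription factors. Many are transcribed, on one strand or on both, and the resulting RNAs, called transcribed ultraconserved regions, are counted among the LncRNAs and are known for altered levels in tumours, hepatocellular carcinoma included. In plasma, RNA is released by many cell types, so that a probe signal does not name its source. As plasma is a bulk sample, fewer releasing cells and less RNA per cell cannot be told apart, and cell type markers were not examined here. The deposited files and tables used here give no sequence for these probes, and none is printed.

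Values of the IRI sample were deposited in more than one version, and the versions differed. One is the scanner file of the IRI sample, called the scanner version. The other is the IRI column of the deposited value matrix, called the matrix version. Whether both come from the same hybridised array is not known from the sources used here. For sham, matrix and scanner file held the same values at 62513 of 62513 spots. For IRI they held the same value at 1 spot, and at 0 of the uc. spots (relative tolerance 1e-05). Over the 962 uc. probes, Spearman rho was 0.72 between sham and the matrix version, 0.446 between sham and the scanner version, and 0.53 between the IRI versions. These correlations are descriptions across probes of single arrays, and Pearson r of the log2 signals was 0.89, 0.58 and 0.63 in the same order. Sham and IRI were scanned on separate days, which leaves the day of scanning and the group confounded, and they cannot be told apart. Every comparison with sham is given from both IRI versions, which share the sham array, and neither version is treated as the true one.

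Most uc. probes were dim. The processed signal, a background-subtracted brightness in scanner units, had a median of 5.69 over the 962 probes on the sham array, with a range from 3.3 to 129720. On sham, 238 uc. probes (24.7%) were well above background, a flag that the scanner software sets when a spot clearly exceeds its local background, against 41.0% of all spots. In the scanner version 415 uc. probes (43.1%) carried this flag, against 68.7% of all spots. The matrix version carries no flags. In it 265 uc. probes (27.5%) reached 16.67, the lowest signal well above background on sham, against 36.7% of all spots. This floor is looser than the flag, since a spot can exceed it on sham without carrying the flag. Among long intergenic noncoding RNAs on the same array, 33.5% of 1217 human and 35.7% of 691 mouse lincRNA probes were well above background on sham. The share of probes with the flag was lower for uc. probes than for these classes on this array, a description without a test.

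Negative-control spots carried the flag too. The array design carries 20 negative-control probes of 60 spots each, and 32.3% of these 1200 spots were well above background on sham, 22.7% were in the scanner version, and 25.5% reached the floor in the matrix version. The uc. probes had 24.7%, 43.1% and 27.5% in the same order, so that on sham the share was higher for control spots. Of the 20 probes, 6 had most of their spots over the limit in each column. Among 308 negative-control spots of another kind, those of the scanner maker, 0 were well above background on sham and 1 was in the scanner version. A stricter limit, the 95th percentile of the 1200 spots, stood at 74.4 on sham, 57.5 in the scanner version and 57.9 in the matrix version. On sham 106 uc. probes exceeded it, against 17.3% of all spots. In the scanner version 198 uc. probes did, 20.6% against 43.9% of all spots, and in the matrix version 136 did, 14.1% against 19.6%. Altogether 245 uc. probes exceeded this limit in at least one column and 74 in all 3 columns, counts without a share of all spots beside them. Of the 962, 94 exceeded it in the scanner version alone, where 26.0% of all spots did, 21 in the matrix version alone, where 1.77% did, and 9 on sham alone, where 1.39% did. The highest single control spot stood at 177 on sham, 331 in the scanner version and 19005 in the matrix version. Above it lay 64, 64 and 7 uc. probes in the same order, and the shares of all spots above it are not given here.

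**Figure D1:**
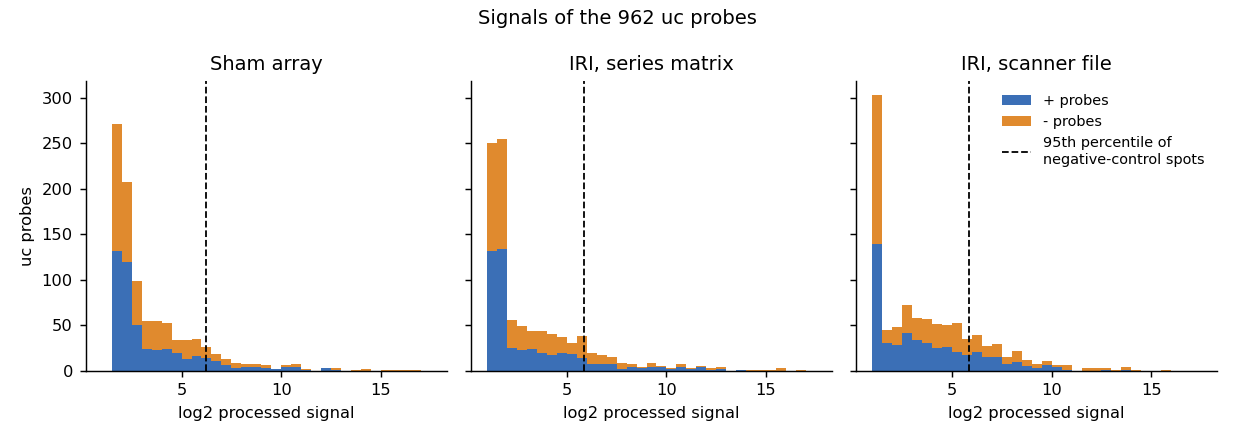
Number of uc. probes (vertical axis) by log2 processed signal (horizontal axis) on the sham array, in the matrix version and in the scanner version, stacked by the suffix of the probe name. The dashed line is the 95th percentile of the 1200 negative-control spots, which 106, 136 and 198 of the 962 probes exceeded, and most probes lie at the dim end of each column.

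A small group of uc. probes was very bright. On sham 29 uc. probes had a signal of 1000 or more, 13 with the suffix + and 16 with -, and all 7 probes of 10000 or more ended in -. The brightest was uc.84-, with 129720 ± 12972 on sham (± is the error that the scanner software estimates for the single spot), 62622 in the matrix version and 56028 in the scanner version. The next was uc.371-, with 83359 ± 8336, 95452 and 14338 in the same order. These probes were bright in all 3 columns, so that their detection did not depend on the IRI version. Signals of uc.340- were 54065 ± 5407 on sham, 44351 in the matrix version and 12442 in the scanner version. Those of uc.460- were 33237 ± 3324, 55197 and 4647. The other 6 of the 10 brightest on sham were uc.465- (19436), uc.18- (18042), uc.162- (15878), uc.432+ (7402), uc.360- (7057) and uc.448- (6187). Brightness is set by how well a probe binds as well as by the RNA present, and signals of different probes are therefore not read as an order of abundance.

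After quantile normalization, which gives both arrays the same distribution of log2 signals over all 61194 spots, the 10 brightest probes lay within a few-fold of sham in the matrix version. Their log2 fold changes, IRI over sham, ran up to 1.41, and the lowest was that of uc.432+, which was 1.99-fold lower. At the limits of the study's methods, a fold of 1.5 or more and of 0.7 or less, 1 of the 10 was higher and 3 were lower in the matrix version. Of all spots detected on both arrays 32.5% were higher and 20.0% lower there. The higher one was uc.162-, whose signal of 51948 in the matrix version was a 2.67-fold rise over 15878 on sham after normalization. In the scanner version all 10 were lower, with log2 fold changes from -6.34 (uc.18-) to -3.48 (uc.84-). There 69.8% of all detected spots were lower, and so were all 29 uc. probes of 1000 or more on sham. All detected spots of that sham brightness had a median of -4.99, so that the fall was not particular to these 10 probes. The error of a fold change was available only from probes printed as several spots. Among 12 such probes with at least 15 detected spots the median SD of the log2 fold change over spots was 0.28 with the matrix version and 0.29 with the scanner version, which covers noise within an array and not between pools.

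The suffix of the name did not divide the probes by detection. Of the 481 probes with each suffix, 117 ending in + and 121 ending in - were well above background on sham, 195 and 220 were in the scanner version, and 125 and 140 reached the floor in the matrix version. The stricter limit gave 54 and 52 on sham, 95 and 103 in the scanner version, and 63 and 73 in the matrix version. The suffix is not always the genomic strand. For the 9 uc. transcripts that appear in the study's lists of changed LncRNAs, the listed strand equalled the suffix for 7 and was opposite for 2, uc.169- and uc.121-.

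Few elements had both probes above background on sham, where few probes of either suffix were. There 24.3% of the + probes and 25.2% of the - probes were well above background. The shares were 26.0% and 29.1% at the floor in the matrix version, and 40.5% and 45.7% in the scanner version. The number of elements with both probes that unrelated probes would give at these shares was not computed. The counts of such elements are therefore not read as a trait of elements. On sham 34 of the 481 elements had both probes well above background, 83 had only the + probe, 87 only the - probe and 277 neither, so that 16.7% of the 204 elements seen at all were seen with both probes. In the matrix version 40 of 225 elements (17.8%) and in the scanner version 95 of 320 elements (29.7%) were seen with both. With the stricter limit 5 elements had both probes on sham. Of the 10 partner probes of the 10 brightest, 5 were well above background on sham, where 24.7% of all uc. probes were, and 1 exceeded the stricter limit. That partner was uc.371+, with 1141 on sham, 1393 in the matrix version and 131 in the scanner version. The + partner of uc.84- had signals of 4.38, 3.03 and 3.72 and was not well above background on either scanned array. For uc.460 the + probe had 3.66, 2.65 and 2.53, beside a - probe of over 10000 on sham.

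**Figure D2:**
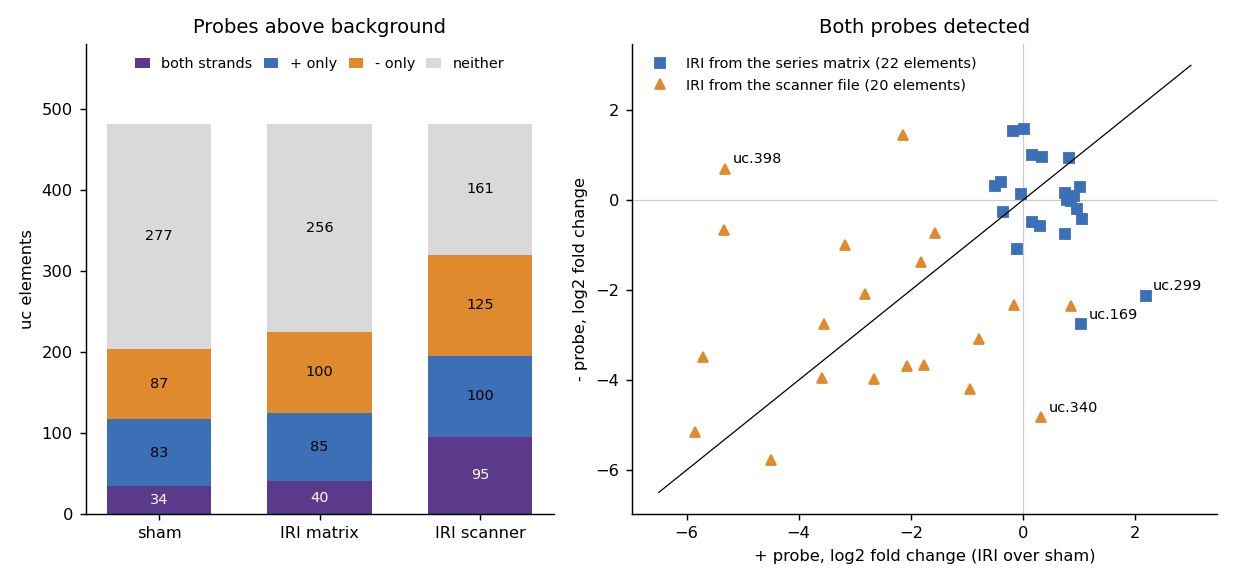
Left, number of the 481 uc. elements (vertical axis) with both probes, only one probe or neither above background in each column; 34, 40 and 95 elements had both (lowest segment of each bar). Right, log2 fold change of the - probe (vertical axis) against that of the + probe (horizontal axis) for elements with both probes detected, 22 with the matrix version and 20 with the scanner version; the diagonal marks equal change, and most elements lie off it.

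A fold change was taken only for probes detected on both arrays, that is, well above background, positive and significant and without outlier flag on sham and in the scanner version, or at the floor of 16.67 in the matrix version. With the matrix version 187 uc. probes were detected (29.2% of all spots were), and with the scanner version 190 were (35.0% of all spots). Of the 238 probes well above background on sham, 78.6% reached the floor in the matrix version and 79.8% were well above background in the scanner version. In all 3 columns 172 probes were above background, and 468 were in none. Shares of all spots for both counts are not given here, so that they are not read as a trait of uc. probes.

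Detected uc. probes were spread around sham when IRI was taken from the matrix version. Among the 187 detected probes the median log2 fold change was 0.28, with quartiles at -0.30 and 0.82, beside a median of 0.21 over all detected spots. At a fold of 1.5 or more 64 of the 187 were higher (34.2%), where 32.5% of all detected spots were, and at 0.7 or less 33 were lower (17.6%), where 20.0% were. The shares for uc. probes were thus close to those of all spots in both directions. Without the floor on the matrix version the count of lower probes was 79 of 238 (33.2%), against 40.2% of all spots. With the stricter limit 25 of 91 were higher (27.5%), against 21.7% of all spots, and 17 lower (18.7%), against 19.3%. Scaling to the 75th percentile instead moved the median of all detected spots to 0.64 and that of uc. probes to 0.60. Then 95 uc. probes were higher (50.8%), against 52.6% of all detected spots, and 24 were lower (12.8%), against 13.9%. By suffix, 33 + probes and 31 - probes were higher, and 16 and 17 were lower.

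In the scanner version most detected uc. probes were lower than on sham. The median log2 fold change of the 190 probes was -2.83, beside -1.79 over all 21406 detected spots, a difference of -1.04. The long intergenic classes stood near the uc. probes, with medians of -2.83 for mouse lincRNA, -2.64 for lincRNA exon and -2.42 for human lincRNA probes, so that the lower median was not particular to uc. probes. At a fold of 0.7 or less 166 were lower (87.4%), against 69.8% of all detected spots, and 9 were higher at 1.5 or more (4.74%), against 19.0%. The array-wide shift depends on the normalization. Without normalization the medians were -0.41 for uc. probes and 0.53 for all detected spots, a difference of -0.94. Then 62 uc. probes were higher (32.6%), against 49.2% of all detected spots, and 90 were lower (47.4%), against 31.5%. Quantile normalization over the detected probes alone gave medians of -1.46 and -0.39, with 32 higher and 117 lower. The difference from all detected spots was negative in each setting tried, from -0.60 with normexp background correction to -1.89 in the detected spots above the median mean signal, and it was not computed for the lincRNA classes in the other settings. With the stricter limit 0 of 80 uc. probes were higher, against 9.86% of all spots over that limit, and 78 (97.5%) were lower, against 85.8%.

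The fold change in the scanner version went with sham brightness. Among detected uc. probes with a sham signal under 100 the median log2 fold change was -1.38 (106 probes), from 100 to under 1000 it was -4.05 (55 probes), and at 1000 or more it was -5.31 (29 probes). All detected spots followed the same order, with medians of -0.81, -3.08 and -4.99. With the matrix version these medians were 0.45, -0.04 and -0.23 for uc. probes and 0.48, -0.02 and -0.09 for all detected spots. Each of the 9 uc. probes that were higher in the scanner version had a sham signal under 100. The sham signal sets the brightness class and is also the value subtracted in the fold change. An order of this kind can follow from that alone, so that it is not read as a trait of the probes. The part of brightness in the shift was not tested.

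**Figure D3:**
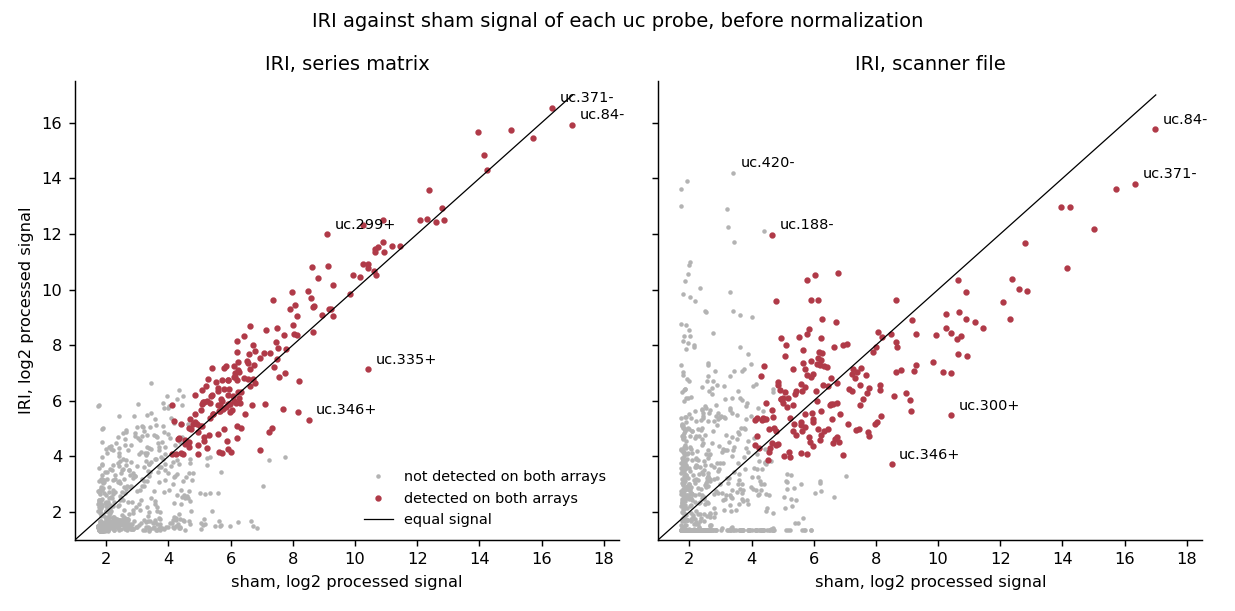
Log2 processed signal of each of the 962 uc. probes in IRI (vertical axis) against the sham array (horizontal axis), before normalization, with IRI from the matrix version (left) and from the scanner file (right). Red points are the 187 and 190 probes detected on both arrays and the line marks equal signal; the points follow the line on the left, with uc.335+ (1377 on sham) below it, and scatter widely on the right.

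The study's list of decreased LncRNAs held 8 uc. transcripts and its list of increased LncRNAs held 1. The study chose them on these arrays, so that their direction in the matrix version is not independent evidence, and the scanner file shares the sham array with it. All 8 were lower than on sham in both IRI versions, also without normalization in the scanner version. After normalization 69.8% of all detected spots were lower there at 0.7 or less. So were 54 of the 55 detected uc. probes with a sham signal from 100 to under 1000. The smallest fall of the 8 there, that of uc.121-, was -2.95 on the log2 scale (-0.26 without normalization). All detected spots of that sham brightness had a median of -3.08, so that this direction was not particular to the listed probes. The largest fall in the matrix version was that of uc.335+, listed on chromosome 6 from 138328076 to 138328290 as overlapping a gene on the antisense strand. Its signal was 1377 ± 137.7 on sham, 141 in the matrix version and 128 in the scanner version. It was 13.2-fold lower in the matrix version and 70.5-fold lower in the scanner version after normalization.

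The second largest fall in the matrix version was that of a + probe on chromosome 10 from 84218630 to 84218832, listed as overlapping a gene on the sense strand. Its element is known from cancer studies, in which a CpG island there is silenced by methylation. Signals were 364 ± 36.6 on sham, 40.0 in the matrix version and 13.1 in the scanner version. This probe was 10.3-fold lower in the matrix version and 142-fold lower in the scanner version. Its - partner was not well above background on sham (6.23), stood at 13.0 in the matrix version, and was well above background at 47.6 in the scanner version. The + probe was thus lower in both versions, whereas the - probe was at background on sham.

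Another 4 listed probes, of middle brightness, were also lower in both versions. On chromosome 13 from 78337352 to 78337556, uc.169- had 289 ± 29.3 on sham, 48.1 in the matrix version and 43.3 in the scanner version. On chromosome 4, uc.257- (44843323 to 44843587) had 123 ± 12.8, 18.6 and 16.7. For both, the IRI signals of the versions lay close to each other, with 6.79-fold and 6.03-fold lower values in the matrix version and 38.9-fold and 35.8-fold lower values in the scanner version after normalization. The other pair differed between versions. On chromosome 4 from 90694612 to 90694891, uc.254+ had 160 ± 16.5 on sham, 32.4 in the matrix version and 114 in the scanner version. On chromosome 16 from 43122450 to 43122743, uc.121- had 150 ± 15.3, 29.7 and 125. These positions are as the study's tables list them, the array header names the mouse build mm9, and no annotation of that build was used here.

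The remaining listed probes were uc.398+, uc.429+ and uc.431+. In the matrix version uc.398+ (213 ± 21.7 on sham) stood at 15.7 and uc.429+ (151 ± 15.5 on sham) at 14.8, both below the floor, so that they were at least 12.3-fold and at least 8.37-fold lower against that floor. In the scanner file they had 29.2 and 81.3 and were 39.7-fold and 11.2-fold lower. The increased one, uc.431+, was close to the floor on sham, with 17.2 ± 3.80, and had 57.4 in the matrix version, 4.41-fold higher. In the scanner file its signal was 21.4 and its log2 fold change was -1.20 after normalization and 0.31 without it, so that its direction there depended on the scaling.

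**Figure D4:**
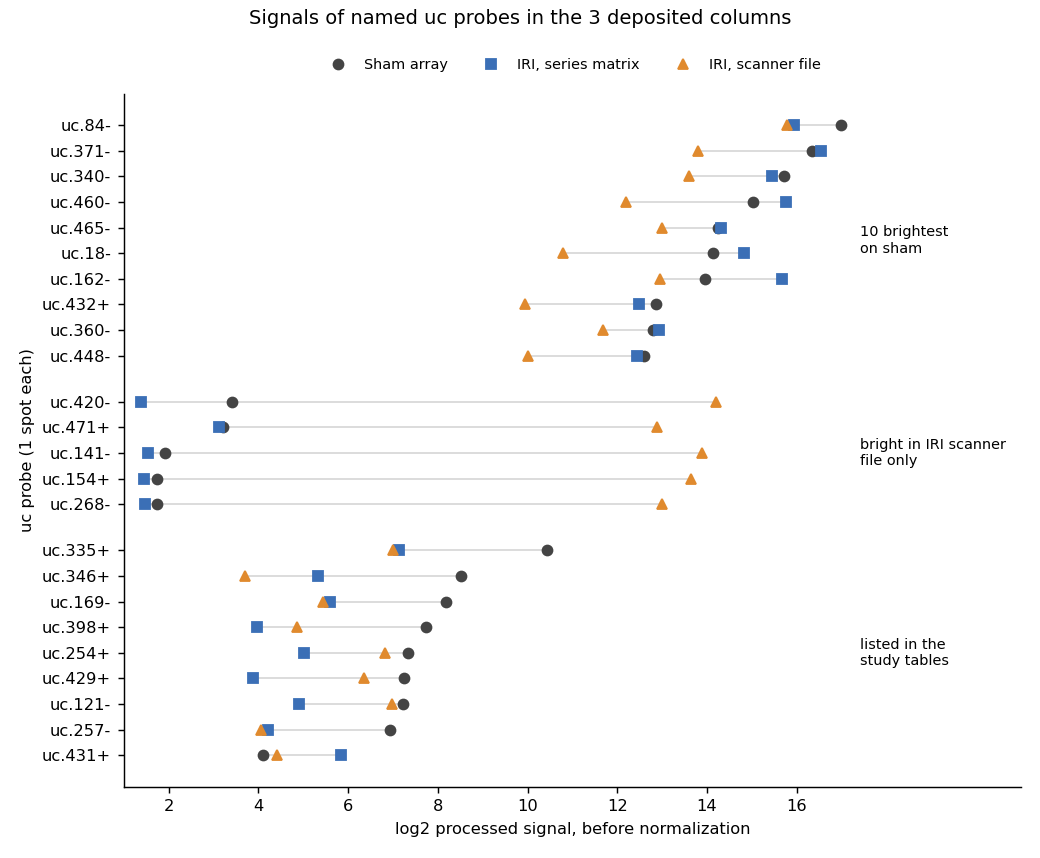
Log2 processed signal before normalization (horizontal axis) of 24 named uc. probes, 1 row each, on the sham array (circles), in the matrix version (squares) and in the scanner version (triangles); each symbol is 1 spot. The 10 brightest probes on sham keep bright signals in both IRI versions, 5 probes are bright only in the scanner version, and 8 of the 9 listed probes have both IRI signals to the left of sham.

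Higher probes in the matrix version were led by uc.299+, with 553 ± 55.5 on sham and 4086 in the matrix version, a log2 fold change of 2.19. It was the opposite in the scanner version, where its signal was 65.3 and it was 52.4-fold lower. The other large rises in the matrix version were uc.431+ (described above), uc.483- (42.7 to 146), uc.316+ (163 to 790) and uc.113+ (99.3 to 413), with log2 fold changes from 1.74 to 2.14. None of these 5 was higher in the scanner version after normalization, and their log2 fold changes there ran from -5.71 to -1.16, but without normalization uc.483- had 0.94 and uc.431+ had 0.31.

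Higher probes in the scanner version were dim on sham. The largest of the 9 was uc.188-, with 25.3 ± 4.30 on sham, 23.1 in the matrix version and 4006 in the scanner version, 24.2-fold higher there after normalization and 1.28-fold in the matrix version. It was followed by uc.174+ (27.4 on sham, 771 in the scanner version), uc.356+ (55.7 and 1289), uc.462- (65.6 and 1456) and uc.154- (31.2 and 309), which were 2.01-fold to 4.96-fold higher. Both uc.174+ and uc.356+ were also higher in the matrix version, 1.7-fold and 1.58-fold, whereas uc.462- and uc.154- had log2 fold changes of -0.26 and -0.39. The largest falls in the scanner version, beside uc.18-, uc.335+ and the probe on chromosome 10, were those of uc.300+ (1370 on sham, 44.9 in the scanner version, 171-fold lower) and uc.30+ (5066 and 493, 80.7-fold lower). The matrix version had 1928 for uc.300+ and 6020 for uc.30+, with log2 fold changes of -0.17 and -0.39.

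A further 225 uc. probes were well above background in the scanner version but not on sham, of the 724 not flagged on sham, where 57.1% of all such spots were. With the matrix version 78 uc. probes reached the floor without being well above background on sham, where 12.7% of all such spots did. The floor is the looser limit, since some unflagged probes, uc.45- (20.9 on sham) among them, exceeded it on sham too. The 78 are therefore not read as probes gained in IRI. Fold changes of these probes are bounds against the lowest signal well above background on sham. After normalization only 79 of the 225 had a bound higher than sham, with a median of 2.29-fold, and 15 of them reached 10-fold. The other probes of the 225 had no such bound and are not read as higher in IRI. With the matrix version the 78 had a median bound of 2.35-fold and a highest of 7.42-fold. The brightest of the 225 was uc.420-, with 10.7 ± 4.17 on sham, 2.59 in the matrix version and 18889 in the scanner version, at least 202-fold higher there after normalization. Next came uc.141- (3.80, 2.91 and 15247) and uc.154+ (3.35, 2.75 and 12702), at least 161-fold and at least 133-fold higher in the scanner version. The same pattern held for uc.268- (3.33, 2.78 and 8202) and uc.471+ (9.28, 8.68 and 7585), at least 82.7-fold and at least 75.8-fold higher. These 5 probes were at background on sham and in the matrix version and among the brightest of the scanner file. For the element uc.154 the + probe was seen only in the scanner version, and the - probe was at 31.2, 16.9 and 309.

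In the other direction, 48 of the 238 uc. probes well above background on sham (20.2%) were not so in the scanner version, where 14.6% of all such spots were not. After normalization the median of the bounds was at least 8.80-fold lower, and without normalization it was at least 2.78-fold lower, against the lowest signal well above background in the scanner version. In the matrix version 51 of the 238 (21.4%) fell below the floor, where 28.7% of all such spots did.

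Of 16 elements that are known from the literature as transcribed ultraconserved regions, 10 of the 32 probes were well above background on sham (31.3%, against 41.0% of all spots), 13 were in the scanner version (40.6%, against 68.7%), and 7 reached the floor in the matrix version (21.9%, against 36.7%). In none of the columns were 16 of the 32 above background. Among those detected on both arrays, 4 of 6 were higher and 1 was lower in the matrix version, where 32.5% and 20.0% of all detected spots were. In the scanner version 0 of 7 were higher and 6 lower, against 19.0% and 69.8%, and 3 of these 6 had log2 fold changes above 0 (0.31 to 0.71) without normalization. The brightest in the matrix version were uc.160-, whose element is also silenced by methylation in tumours, and uc.73+, whose element is altered in leukemia and colorectal cancer. Signals of uc.160- were 93.7 ± 10.2 on sham, 163 in the matrix version and 58.6 in the scanner version, and it was 1.52-fold higher in the matrix version and 8.20-fold lower in the scanner version. Its partner uc.160+ had 6.01, 2.99 and 2.53 in the same order and was above background in no column. The role named is that of the element, and the strand it concerns was not examined here. Signals of uc.73+ were 55.1 ± 7.93, 146 and 339.1, and it was 2.56-fold higher in the matrix version, whereas in the scanner version its log2 fold change was 0.03 after normalization and 2.62 without it.

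Elements linked to the liver, to low oxygen or to the intestinal mucosa were dim on sham. For the element that promotes growth of hepatocellular carcinoma cells, the - probe had 26.4 ± 4.25 on sham, 32.0 in the matrix version and 32.7 in the scanner version, with log2 fold changes of 0.69 and -1.41 after normalization and 0.31 in the scanner version without it. The + probe of this element had 24.8, 36.3 and 14.4 and was not well above background on sham. For the element linked to lipid accumulation in hepatocytes, the - probe had 34.9 ± 5.02 on sham, 2.92 in the matrix version and 2.53 in the scanner version, at least 1.5-fold and at least 8.65-fold lower after normalization and at least 2.75-fold lower in the scanner version without it. The hypoxia-induced element was not well above background on sham with either probe (6.58 and 6.02), and its + probe had 75.2 in the scanner version and 11.4 in the matrix version. For the element that acts in renewal of the intestinal mucosa, both probes were at background on sham (3.33 and 3.68) and in the matrix version (2.79 and 2.57) and had 438 and 421 in the scanner version. In this group, 3 probes exceeded the stricter limit of a column, all in the scanner version, namely the + probe of the hypoxia-induced element and both probes of the intestinal one.

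The remaining literature elements gave few further signals. Of an element altered in lung cancer, both probes were detected in both versions, the + probe with 57.9 on sham, 54.8 in the matrix version and 25.8 in the scanner version, and the - probe with 18.1, 39.1 and 26.7. The - probe was 2.98-fold higher in the matrix version, where the + probe had a log2 fold change of 0.03. Of the element in an alternative exon of the splicing regulator Tra2b, the - probe had 26.0 on sham, 13.6 in the matrix version and 42.5 in the scanner version, with a log2 fold change there of -1.05 after normalization and 0.71 without it. For 5 elements, uc.63 among them, no probe was above background in any column. On sham uc.8+, of an element altered in bladder cancer, was well above background with 33.4, but in both IRI versions it was not, with 3.05 and 4.42. The - probe of an element linked to the intestinal barrier behaved alike, with 37.5 on sham, 15.5 in the matrix version and 2.53 in the scanner version.

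Where both probes of an element were detected, their changes often differed, but pairs of unrelated probes were not examined for comparison. With the matrix version 22 elements had both probes detected, and the absolute difference between the log2 fold changes of the + and the - probe had a median of 0.83 and a maximum of 4.31. One element, uc.83, had both probes higher, 0 had both lower, and 3 had one higher and one lower. Of all detected uc. probes 34.2% were higher and 17.6% lower with this version. The widest gap was that of uc.299, with log2 fold changes of 2.19 for the + probe (553 to 4086) and -2.12 for the - probe (204 to 52.1). The second was that of uc.169, with 1.05 for the + probe (35.5 to 62.5) and -2.76 for the - probe.

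In the scanner file 20 elements had both probes detected, 15 with both lower, 0 with both higher and 3 with one higher and one lower. Of all detected uc. probes 87.4% were lower and 4.74% higher there, so that these counts are not read as a trait of elements. The median absolute difference was 2.04, and the widest was that of uc.398, with log2 fold changes of -5.31 for the + probe and 0.70 for the - probe (19.7 on sham, 119 in the scanner version). For uc.340 the - probe was lower (-4.82) and the + probe had 0.33 (33.9 on sham, 196 in the scanner version). The same element had -0.41 for the - probe and 1.06 for the + probe in the matrix version.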

How the data were processed

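RNA from a sham plasma pool and an IRI plasma pool was profiled, on 1 array each, and samples were grouped by their labels. Per the file headers, the authors used Agilent Feature Extraction 11.0.1.1. They deposited the processed signal (an intensity after background subtraction, not normalized between arrays), its error, the median signal, the local background and 0 or 1 flags, which are of another kind than intensities. The authors also deposited a series matrix of linear intensities, joined here by feature number; it has 0 columns without a sample, and how its IRI column was made is not given in the sources used here. Members, lists and rules were chosen with earlier results of these data known.

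Log2 processed signals were quantile normalized, after the methods of the paper, over spots of control type 0 (pandas 2.3.3, numpy 2.4.6 and scipy 1.17.1 in Python 3.11.15), and checked against limma 3.58.1 in R 4.3.3. The calling step was tested on data simulated from the sham array, with a uniform shift between arrays and few changed spots. In the scanner version most detected spots were lower than on sham after normalization, a setting that the simulation did not cover. No test was made, since each group has 1 array, and the number of arrays limits the precision. Detection and bounds follow the rules given with the results. Named probes were the 10 brightest on sham, the 5 largest rises and falls in each IRI version, the 5 brightest in the IRI scanner file among those dim on sham, the probes in the study's lists and 16 elements from the literature, most of which are described by their known role; any other named probe was chosen after its values were seen. Alternatives were other detection limits, other normalizations, normexp with an offset of 50 on the median signal, other fold limits and the ratio of log2 signals. Folds above the 95th percentile of negative-control spots were an alternative chosen after seeing the data. Liver tissue and PCR measurements were not used here.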

Additional observations from a re-analysis of the deposited data

How the results depend on the processing

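No paired analysis was possible because each group has 1 array. Each value rests on 1 spot, and no spread between pools was measured. Signals below the 95th percentile of negative-control spots lie in the range of the controls, and some control spots lie above that limit. The median log2 fold change with the IRI column was 0.28, and it was 0.60 with scaling by the 75th percentile and reversed in sign, to -0.0012, without the floor. In the scanner file the median of -2.83 kept its sign in the 6 alternatives run, at -1.46 (quantile normalization over detected probes), -0.41 (none), -1.54 (normexp), -4.17 (spots above the median mean signal) and -4.02 (above the 95th percentile of negative-control spots), with -2.78 for the 75th percentile. The median bound of uc. probes lost in the scanner file fell from 8.80-fold to 2.78-fold without normalization, an alternative chosen after seeing the data.

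Counts of detected probes depended most on the limit. With the positive and significant flag 499 probes on sham, 136 elements with both probes and 421 probes in the scanner files passed, and with the 95th percentile of negative-control spots 106, 5 and 80 did, and 91 in the series matrix. With a flag on at least one array 463 probes passed in the scanner files.

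Of the 190 probes in the scanner files, where 9 were higher and 166 lower, 32 were higher with quantile normalization over detected probes, 62 were higher and 90 lower without normalization, 5 were higher and 74 lower in the brighter part, 0 were higher and 78 lower above the 95th percentile, and 5 were higher at a fold of 2 or more. On the ratio of log2 signals 1 was higher and 109 were lower. With the IRI column, where 64 were higher and 33 lower, 79 were lower without the floor, 28 were higher and 19 lower in the brighter part, 25 and 17 above the 95th percentile, 30 and 17 at a fold of 2 or more and 0.5 or less, and 1 and 6 on the ratio of log2 signals. In the brighter part 27.7% of all detected spots were higher and 66.4% lower in the scanner files. With the IRI column 24.8% and 20.2% were. Shares of all spots at the other fold limits and on the ratio of log2 signals are not given here. The counts of the brighter part and of the 95th percentile rest on fewer probes by construction, and for the other settings the cause was not tested.

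Among named probes detected in the scanner files, 5 called there changed sign without normalization, to 0.31 (uc.431+), 0.94 (uc.483-) and 0.71, 0.31 and 0.56 (3 - probes of literature elements, those of Tra2b, of hepatocellular carcinoma and of lung cancer), and with quantile normalization over detected probes to 0.57, 0.044, 0.39, 0.084 and 0.73 in the same order. With the IRI column in place of the scanner file 15 changed sign. They stood at 0.17 (uc.18-), 1.74 (uc.113+), -0.39 (uc.154-), 0.60 (uc.160-), 1.41 (uc.162-), 2.19 (uc.299+), 1.77 (uc.316+), 0.40 (uc.371-), 2.14 (uc.431+), 0.58 (uc.460-), -0.26 (uc.462-), 1.79 (uc.483-), 0.69 (the - probe of the hepatocellular carcinoma element), and 0.030 and 1.57 (the + and the - probe of the lung cancer element).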

Other observations

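On sham alone 9 uc. probes exceeded the 95th percentile of the negative-control spots, as given above. They were uc.169-, uc.398+, uc.257- and the + probe on chromosome 10 described above, which are in the study's list of decreased LncRNAs, and uc.43-, uc.321-, uc.402+, uc.183+ and uc.69+, which are not and were picked out after their values had been seen. Signals of uc.43- were 130 ± 14.0 on sham, 7.72 in the matrix version and 9.77 in the scanner version, after normalization at least 7.09-fold lower in the matrix version and at least 47.4-fold lower in the scanner version, and at least 10.3-fold lower there without normalization. Signals of uc.321- were 116 ± 12.1, 2.70 and 46.5, and those of uc.69+ were 75.4 ± 8.29, 3.09 and 6.68. The spot error of uc.402+ was large, with 102 ± 36.3 on sham, beside 3.16 and 5.75. For uc.183+ the signals were 79.8 ± 8.86, 32.4 and 30.4.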
